A study of Mus musculus with 4 samples.

Results

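The members of the interleukin-1 (IL-1) family and of the inflammasome followed here were 10 named genes out of the 32285 genes of the deposited matrices, and all 10 were found. They are the cytokines Il1a, Il1b and Il18, the inhibitors Il1rn, Il1r2 and Il18bp, the sensor Nlrp3, the adaptor Pycard and the inflammatory caspases Casp1 and Casp4. They were chosen by name, with earlier results of these data known. RNA was counted in single CD11b+ cells sorted from MC38 tumors, a transplanted mouse colon carcinoma, grown in bone marrow chimeras of the C57/BL6 strain. The VISTA KO group received marrow of donors without VISTA, an inhibitory receptor encoded by Vsir, and the WT group received wild-type marrow. Marrow was left to reconstitute for 6 weeks, tumors 9 to 10 mm wide were pooled, and CD45.1 and CD45.2 served to tell WT from KO cells. No age is stated for the mice.

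Gene expression was read from 1 library per group, and the antibody tag libraries made beside them are not used here. There was therefore no replicate check and no test, and every 95% interval below covers counting error only. The VISTA KO library held 15257 barcodes with 80366761 UMIs (unique molecular identifiers, 1 per captured RNA molecule) and the WT library 10241 barcodes with 61753547 UMIs. Per the labels 10000 cells were loaded, fewer than the barcodes of either library, and 47 barcode sequences occurred in both. Filtering kept 15140 VISTA KO cells with a median of 4212.5 UMIs and 10193 WT cells with a median of 4692. Levels are given as UMIs per 1000000 UMIs of the cells summed (CPM). Vsir itself stood at 46.2 CPM in the VISTA KO library and at 136.5 CPM in the WT library. No source used here names the deleted stretch of Vsir, and a 3′ tag outside it checks nothing. The nuclear RNA Malat1, which tends to rise in damaged cells, was counted at 13406 CPM in the VISTA KO and 10148 CPM in the WT library, and the median mitochondrial share was 1.10% and 0.902%. The part of these library differences in the results below was not tested.

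IL-1α and IL-1β signal through the same receptor and drive fever, endothelial activation and the recruitment of myeloid cells. IL-1β and IL-18 are made as inactive precursors. A sensor such as NLRP3 assembles with the adaptor ASC (Pycard) and caspase-1 into an inflammasome, which cleaves both precursors and opens gasdermin D pores in the membrane. The pathway is held back outside the cell by a receptor antagonist (Il1rn), a decoy receptor (Il1r2) and a soluble IL-18 binding protein (Il18bp). In tumors these genes are known mainly from monocytes, macrophages and neutrophils. Cleavage, secretion and pore formation are protein steps that RNA counts do not show.

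Positions are on the mouse build mm10 (GRCm38.p6). Il1a (ENSMUSG00000027399, chr2:129299609-129310186) and Il1b (ENSMUSG00000027398, chr2:129364569-129371164) are neighbours on chromosome 2, which also carries Il1rn (ENSMUSG00000026981, chr2:24336860-24351491). Casp1 (ENSMUSG00000025888, chr9:5298517-5307281) and Casp4 (ENSMUSG00000033538, chr9:5308849-5336791) are neighbours on chromosome 9, with Il18 (ENSMUSG00000039217, chr9:50554700-50581841) on the same chromosome. Il18bp (ENSMUSG00000070427, chr7:102015074-102018232) and Pycard (ENSMUSG00000030793, chr7:127991373-127993867) are on chromosome 7. Il1r2 (ENSMUSG00000026073) lies at chr1:40084692-40125230 and Nlrp3 (ENSMUSG00000032691) at chr11:59541569-59566955. Il1a, Il1b and Il1r2 each overlap an annotated long noncoding RNA (Gm14023, Il1bos and Gm16894), and Il18 overlaps Bco2 and Tex12. How the authors counted reads in such overlaps is not stated.

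The promoter windows of the genes on which the results turn are shown first, because the balance of Il1b to Il1rn and the level of Pycard differed between the libraries, and Il1a is the other IL-1 gene. All 10 members had RefSeq windows of GRCm38.p6, 14 in all, each running from 250 bases before a transcript start to 50 after it. Capitals mark matches to 7 motifs searched on both strands, and positions count from the start, with -1 the base before it.
Il1b chr2:129371090-129371389, minus strand: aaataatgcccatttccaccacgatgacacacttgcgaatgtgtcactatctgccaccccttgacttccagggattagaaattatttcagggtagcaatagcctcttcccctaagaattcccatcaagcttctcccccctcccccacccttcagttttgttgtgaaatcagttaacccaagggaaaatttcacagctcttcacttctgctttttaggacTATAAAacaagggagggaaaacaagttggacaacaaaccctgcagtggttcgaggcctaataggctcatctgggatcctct
Il1a chr2:129309923-129310222, minus strand: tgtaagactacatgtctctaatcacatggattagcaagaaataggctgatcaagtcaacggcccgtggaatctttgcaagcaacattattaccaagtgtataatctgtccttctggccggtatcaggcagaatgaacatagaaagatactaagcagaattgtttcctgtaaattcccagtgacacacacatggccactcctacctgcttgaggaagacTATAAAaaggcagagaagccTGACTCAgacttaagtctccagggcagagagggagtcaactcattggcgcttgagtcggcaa
Il1rn first window chr2:24336610-24336909, plus strand: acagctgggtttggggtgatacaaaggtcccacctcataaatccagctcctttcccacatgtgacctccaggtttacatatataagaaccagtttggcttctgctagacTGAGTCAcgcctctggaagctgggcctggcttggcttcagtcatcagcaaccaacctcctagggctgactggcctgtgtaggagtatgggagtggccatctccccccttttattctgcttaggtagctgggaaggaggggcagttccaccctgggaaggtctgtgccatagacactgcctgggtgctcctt
Il1rn last window chr2:24345121-24345420, plus strand: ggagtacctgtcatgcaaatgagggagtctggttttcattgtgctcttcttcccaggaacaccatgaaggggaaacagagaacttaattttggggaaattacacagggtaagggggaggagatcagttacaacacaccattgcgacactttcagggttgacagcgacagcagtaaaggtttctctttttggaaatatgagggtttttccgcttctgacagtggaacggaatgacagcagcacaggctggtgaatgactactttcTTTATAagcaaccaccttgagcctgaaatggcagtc
Pycard chr7:127993818-127994117, minus strand: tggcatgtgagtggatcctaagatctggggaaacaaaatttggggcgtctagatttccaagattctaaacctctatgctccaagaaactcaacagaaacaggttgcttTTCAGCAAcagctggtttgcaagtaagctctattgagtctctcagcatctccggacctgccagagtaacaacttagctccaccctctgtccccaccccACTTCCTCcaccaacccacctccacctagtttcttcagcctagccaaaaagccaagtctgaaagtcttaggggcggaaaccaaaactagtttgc

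The Il1b and Il1a windows each hold a TATA box (TATAAA, in 13.6% of all 32851 RefSeq promoter windows), at -31 for Il1b and at -32 for Il1a. The Il1a window also holds an AP-1 motif (TGANTCA, in 7.81% of windows) at -12. Il1rn has 3 annotated starts, and the protein is known in secreted and intracellular forms with different first exons. The first Il1rn window holds an AP-1 motif at -141 and no TATA box, the middle one holds none of the motifs, and the last holds TATAAA on the other strand at 15 after the start. Tags from the 3′ end cannot tell these starts apart. The Pycard window holds a C/EBP motif (TTGCNNAA, in 10.8% of windows) at -142 and a PU.1 motif (GAGGAAGT, in 3.2%) at -44, both on the other strand. Of the members not printed, Nlrp3 holds a kappaB motif (GGANTTTCC, in 412 of the 32851 windows) at -122, Il18bp a C/EBP motif at -49, Il1r2 a GAS motif (TTCNNNGAA, 8.3%) at -111 and Il18 a TATA box on the other strand at -175. The Casp1 and Casp4 windows hold none of the 7, and the last motif, part of the interferon-stimulated response element (GAAANNGAA, 8.56%), is in no member's window. A match describes letters and is not a measured binding site.

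Levels were compared between classes of cells named from marker genes. Both libraries were clustered together without the members, the pathway genes or Vsir, so no member shaped the classes. Monocyte-like cells made up 3788 VISTA KO and 3696 WT cells, macrophage-like cells 2170 and 1271, cDC2-like cells (type 2 conventional dendritic cells) 664 and 426 and mature dendritic cell-like cells 269 and 173. There were 397 VISTA KO and 506 WT NK cell-like cells. Neutrophil-like cells were few, at 77 VISTA KO and 386 WT cells. Droplets with both neutrophil and macrophage markers, called mixed, numbered 769 in the VISTA KO library (5.08% of cells) and 1908 in the WT library (18.7%), with median depths of 10448 and 9706.5 UMIs. No doublets were removed, and mixed clusters were kept apart from the named classes. Unnamed clusters held 6564 VISTA KO cells (43.4%) and 1340 WT cells (13.1%), most of the VISTA KO ones in cluster 3, led by Nr4a1 and Klf4, and in cluster 4, led by H2-Eb1 and Cxcl9. Although the label names myeloid suppressor cells, NK cell-like, T cell-like and fibroblast-like clusters were also found among the sorted cells.

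Il1b, which encodes the precursor of IL-1β, had its highest level in neutrophil-like cells. It stood at 20519 CPM in VISTA KO and 24746 CPM in WT neutrophil-like cells, from 2208 and 13114 UMIs, and the median cell held 26 UMIs of Il1b in the VISTA KO and 30 in the WT library. Mixed neutrophil and macrophage droplets came next, at 3706 and 4494 CPM. Mature dendritic cell-like cells followed, at 1587 CPM in VISTA KO and 1988 CPM in WT. In the WT library monocyte-like and cDC2-like cells could not be told apart, at 1045 and 1042 CPM with overlapping intervals. Macrophage-like cells stood lower, at 593 CPM in VISTA KO and 497 CPM in WT, and NK cell-like cells lowest, at 167 and 94.0 CPM.

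**Figure D1:**
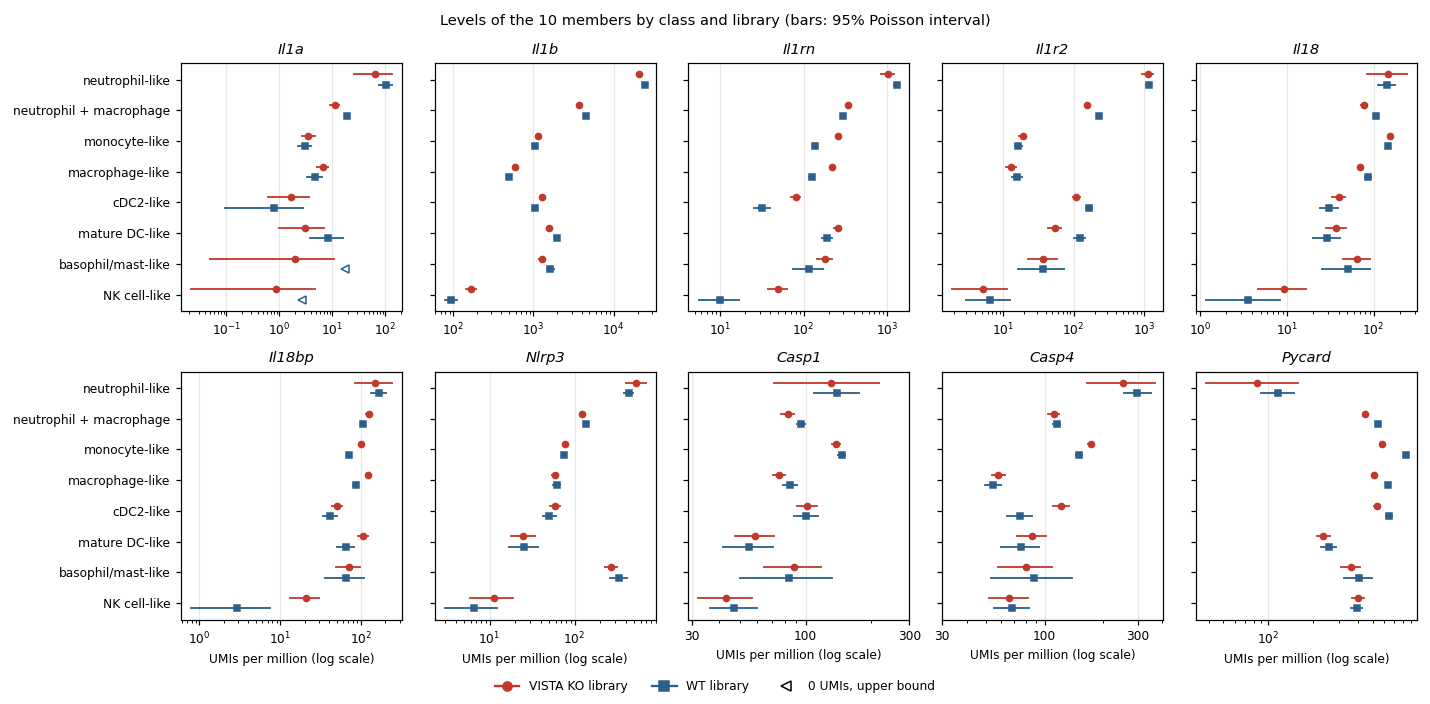
Level of each of the 10 members in 8 classes of cells, in CPM of the class sum on a log scale, with the VISTA KO library as circles above the WT library as squares and bars for the 95% Poisson interval. Il1b, Il1a, Il1rn, Il1r2 and Nlrp3 are highest in neutrophil-like cells in both libraries, and Pycard is lowest there. Casp4 and Il18bp also have their highest points there, on 27 and 16 UMIs in VISTA KO and 158 and 89 in WT. Open triangles mark the upper bound where a library held 0 UMIs.

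The cells that held the Il1b RNA differed between the libraries, as did the makeup of the libraries. Mixed neutrophil and macrophage droplets supplied 27.3% of all Il1b UMIs in the VISTA KO library and 64.2% in the WT library, and neutrophil-like cells 1.83% and 8.87%. Of the UMIs of all genes, the mixed droplets held 11.1% in the VISTA KO and 34.2% in the WT library. Cluster 3, with 14.5% of VISTA KO and 3.24% of WT cells, supplied 26.6% and 2.98% of Il1b UMIs. Its share of the UMIs of all genes was near that, at 24.9% in VISTA KO and 5.23% in WT. Monocyte-like cells supplied similar parts of the Il1b UMIs, 14.0% and 12.3%, and held 18.5% and 28.2% of the UMIs of all genes. Il1b was also unevenly spread over single cells: the richest 10% of cells held 54.9% of its UMIs in the VISTA KO library and 53.1% in the WT library, and the highest cell held 163 and 249 UMIs.

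**Figure D2:**
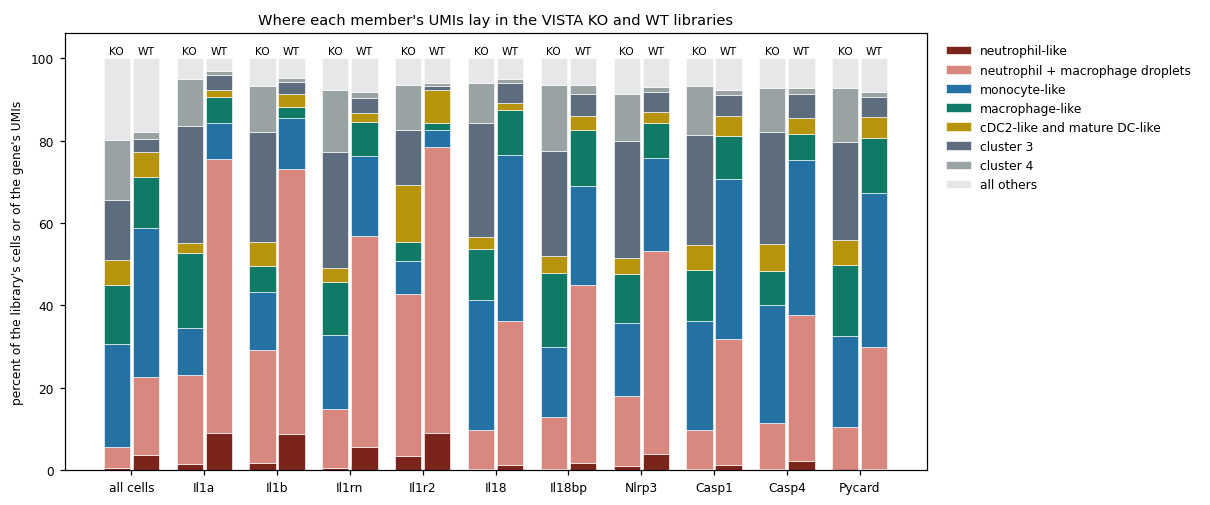
Percent of the library's cells (leftmost pair) and of each member's UMIs that lay in each class or cluster, with the VISTA KO bar left of the WT bar for each gene. Droplets with neutrophil RNA (the lowest 2 segments) supply most WT UMIs of Il1a, Il1b, Il1rn, Il1r2 and Nlrp3, while the VISTA KO bars draw more on clusters 3 and 4.

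Over all kept cells Il1b stood at 1503 CPM (120676 UMIs) in the VISTA KO library and at 2396 CPM (147826 UMIs) in the WT library, a log2 ratio of VISTA KO over WT of -0.67 (-0.68 to -0.66). A gene was called higher or lower where the ratio was at least 1.5-fold and its interval left out 0, among genes with at least 100 UMIs over both libraries. By that rule 3 of the 10 members were lower over all kept cells, namely Il1a, Il1b and Il1r2, against 4.19% of all 11499 genes, and 0 were higher, against 4.43%. The median ratio was -0.22 over the members and 0.08 over all genes. With the neutrophil-like cells and the mixed neutrophil droplets left out, a comparison added after seeing the data, Il1b stood at 1199.5 CPM in VISTA KO and 993.7 CPM in WT cells, and the ratio turned to 0.27. In those cells 2 members were higher (Il1rn and Il18bp), against 5.13% of genes, and 0 were lower, against 3.89%.

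Within classes the Il1b difference was small and did not keep one direction. The log2 ratio was 0.12 in monocyte-like (1138 CPM in VISTA KO, 1045 CPM in WT), 0.25 in macrophage-like and 0.32 in cDC2-like cells (1296 and 1042 CPM). It was -0.28 in mixed neutrophil and macrophage droplets and -0.33 in mature dendritic cell-like cells. Of these 5 ratios none reached 1.5-fold. The monocyte-like value is not firm in direction, being -0.30 where each library was clustered alone and -0.01 where the members were allowed among the variable genes.

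The direction of the Il1b ratio is given here beside the neutrophil marker sum of each cluster, which was above 0 in all of them. Of 14 clusters with at least 100 cells in both libraries, the Il1b interval lay above 0 in 9 and below 0 in 4. That split, taken from the Il1b result itself, was met or passed by 0.159% of 1888 genes. It has no size rule and depends on UMI counts, which were high for Il1b. In those 9 clusters the 12 neutrophil markers summed to between 73.7 and 324 CPM in the VISTA KO and between 106.3 and 324 CPM in the WT library. In the 4 clusters below 0 the sums ran from 494 to 8716 CPM in VISTA KO and from 1774 to 11613 CPM in WT cells. In monocyte-like cells the sum was 218 CPM in VISTA KO and 265 CPM in WT, with the granule genes Camp and Ngp at 0 in both. Their part in the result was not tested.

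The share of cells with an Il1b UMI was read after thinning every cell to 1000 UMIs. It was 42.0% in VISTA KO and 36.9% in WT monocyte-like cells, with 160 and 57 shallower cells left out (66.5% and 58.0% unthinned). In NK cell-like cells, which should hold little of it, the share was 16.5% in VISTA KO and 9.61% in WT (33.8% and 17.4% unthinned). Median depths before thinning were 3780 and 4414.5 UMIs in monocyte-like cells and 2315 and 2202.5 in NK cell-like cells. The monocyte-like shares thus lay above the NK cell-like ones in both libraries, and both classes were higher in the VISTA KO library. The Il1b ratio in NK cell-like cells, 0.83, was the only one past 1.5-fold among named classes with a ratio, on 195 and 130 UMIs.

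Il1a encodes IL-1α, which is active without cleavage by caspase-1 and is known as an alarm signal of dying cells. It was sparse, with 465 UMIs in the VISTA KO and 612 in the WT library. It stood at 5.79 CPM in VISTA KO and 9.92 CPM in WT over all kept cells, a ratio of -0.78 (-0.95 to -0.60). That ratio too turned, to 0.42, without the neutrophil droplets. Neutrophil-like cells had the highest level, at 65.1 CPM in VISTA KO and 104 CPM in WT, with overlapping intervals. Mixed neutrophil and macrophage droplets stood at 11.2 and 19.3 CPM, the only class in which Il1a was called (-0.77), 1 lower and 0 higher of 10 members there against 1.75% and 4.12% of genes. Among the named classes, Il1a stood highest relative to Il1b in macrophage-like cells. Il1a UMIs were 1.11% of Il1a plus Il1b UMIs in VISTA KO and 0.956% in WT macrophage-like cells, against 0.313% and 0.291% in monocyte-like cells. The macrophage-like value rested on cluster 2, with 79 of 85 VISTA KO and 39 of 39 WT Il1a UMIs, and in cluster 11 the share was 0.504% in VISTA KO and 0% (0 to 0.616) in WT.

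Il1rn, which encodes the IL-1 receptor antagonist, was the member called in the most clusters. In monocyte-like cells it stood at 259.7 CPM (251.6 to 268.1) in VISTA KO and 136.8 CPM (131.3 to 142.4) in WT, a log2 ratio of 0.93 (0.85 to 1.00). In macrophage-like cells it stood at 217 CPM in VISTA KO and 125 CPM in WT (0.79, 0.69 to 0.90). In cDC2-like cells the levels were 80.3 and 32.0 CPM (1.31, 0.97 to 1.70). The intervals of the libraries did not overlap in any of these 3 classes. The 12 macrophage markers also summed higher in the VISTA KO library. Their sums were 6197 CPM in VISTA KO and 3057 CPM in WT monocyte-like cells, and 23241 and 19284 CPM in macrophage-like cells. In cDC2-like cells they were 1643 and 903 CPM, and in NK cell-like cells 1698 and 436 CPM. The part of macrophage RNA in the Il1rn and Il18bp differences was not tested.

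Il1rn was the 1 member called higher in monocyte-like cells, against 5.31% of 8680 genes, and 0 members were lower, against 1.53%. It was also the 1 called higher in macrophage-like cells, against 3.14% of 8502 genes, with 0 lower against 1.09%. That call was lost where each library was clustered alone, at a ratio of 0.50. In cDC2-like cells 2 of 9 members were higher (Il1rn and Casp4) against 5.11% of genes, and 1 was lower (Il1r2) against 1.99%. The median ratio over members was 0.16 in monocyte-like, 0.02 in macrophage-like and 0.28 in cDC2-like cells, and over all genes 0.07, 0.06 and 0.04.

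**Figure D3:**
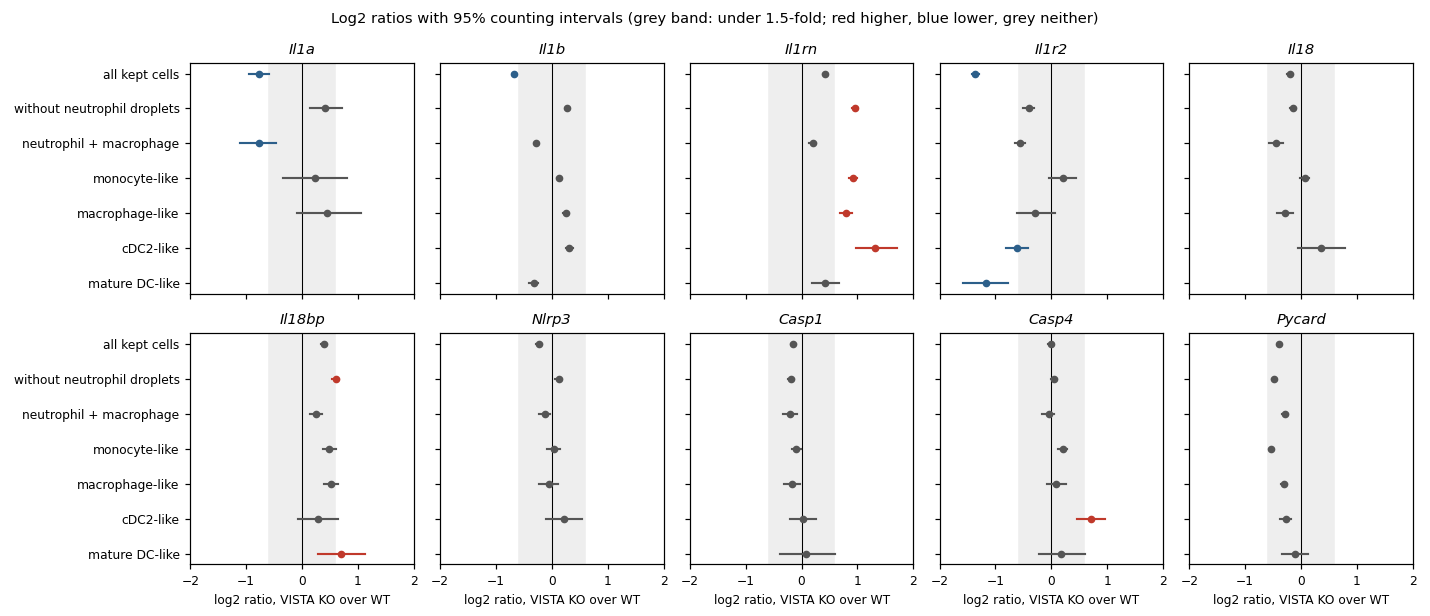
Log2 ratio of VISTA KO over WT for each member over all kept cells, without neutrophil droplets, and in 5 classes, with 95% counting intervals and a grey band for less than 1.5-fold. Il1rn is coloured as higher in monocyte-like, macrophage-like and cDC2-like cells (0.93, 0.79 and 1.31), Il1a and Il1b cross 0 when neutrophil droplets are left out, and the Pycard points lie below 0 in each of the 7.

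Among clusters Il1rn was called higher in 9 of the 13 in which it had at least 100 UMIs, a count that 1.06% of 2178 genes reached. The 3 monocyte-like clusters gave ratios of 0.91, 0.97 and 0.59, the last in cluster 7, which is led by interferon-induced Ifit genes. The macrophage-like clusters gave 0.80 in cluster 2, led by Mmp12, Pf4 and Spp1, and 0.84 in cluster 11, led by Fcrls and Folr2. Unnamed clusters 3, 4 and 6 gave 1.13, 0.66 and 1.46. The last rested on 501 VISTA KO and 25 WT Il1rn UMIs, from 1635 and 161 cells. Cluster 6 was shallow, with median depths of 863 and 962 UMIs, and Malat1 stood there at 53696 and 36269 CPM. The 4 clusters without a call, at ratios from -0.02 to 0.42, were those with neutrophil marker sums of at least 494 CPM in the VISTA KO and 1774 CPM in the WT library. In neutrophil-like cells themselves Il1rn stood at 1013 CPM in VISTA KO and 1296 CPM in WT. Their part in the result was not tested.

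After thinning, 19.96% of VISTA KO and 12.0% of WT monocyte-like cells held an Il1rn UMI (47.2% and 35.7% unthinned), and 19.4% and 11.8% of macrophage-like cells (50.5% and 40.2% unthinned). The NK cell-like share was 4.63% in VISTA KO and 1.02% in WT (11.3% and 1.98% unthinned), at the depths given above. NK cell-like cells held 57 and 14 Il1rn UMIs, or 48.9 and 10.1 CPM. The monocyte-like and macrophage-like shares stood above that background in both libraries. Malat1 stood at 11517 CPM in VISTA KO and 7759 CPM in WT monocyte-like cells, and its part in the Il1rn difference was not tested.

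The balance of Il1b to its antagonist differed in the same direction in each cluster tested. Il1b UMIs were 81.4% of Il1b plus Il1rn UMIs (80.9 to 81.9, exact binomial interval) in VISTA KO and 88.4% (88.0 to 88.9) in WT monocyte-like cells. In macrophage-like cells the share was 73.2% in VISTA KO and 79.9% in WT, among cDC2-like cells 94.2% and 97.0%, and among mature dendritic cell-like cells 86.1% and 91.3%. It was lower in the VISTA KO library, with intervals apart, in all 14 clusters. Of 2588 genes set beside Il1b, 4 showed that pattern (0.155%), Il1rn among them. The pattern was taken from the Il1rn result itself, with Il1b held fixed, and depends on UMI counts. All kept cells together differed likewise, at 84.9% in VISTA KO and 92.3% in WT. So did NK cell-like cells, the background class, at 77.4% and 90.3% on 57 and 14 Il1rn UMIs. In the 4 clusters where Il1rn was not called, the Il1b interval itself lay below 0. The part of neutrophil RNA in these shares was not tested. Clusters differed more from each other than the libraries did, and Ifit-led cluster 7 was lowest among the monocyte-like ones, at 67.9% in VISTA KO and 74.2% in WT. In neutrophil-like cells, too few for that count, the share was 95.3% and 95.02% with overlapping intervals. Tag counts are not scaled to transcript length, so the share is read between libraries and classes and not as a ratio of molecules made.

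**Figure D4:**
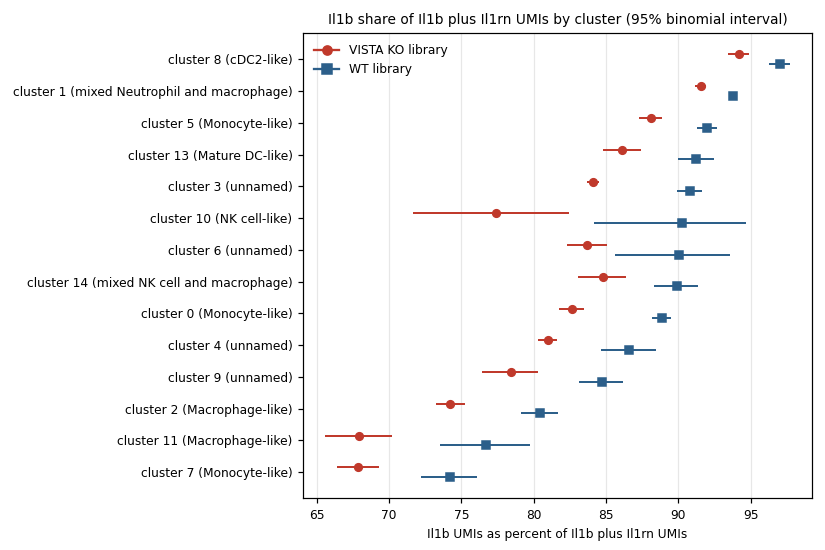
Il1b UMIs as a percent of Il1b plus Il1rn UMIs in the 14 clusters with at least 100 cells in both libraries, VISTA KO circles above WT squares, with 95% binomial intervals. Each VISTA KO point lies left of its WT point, from 67.9% against 74.2% in cluster 7 to 94.2% against 97.0% in cluster 8.

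Il1r2 encodes the decoy receptor that binds IL-1 without signalling. Its level was highest in neutrophil-like cells, at 1124 CPM in VISTA KO and 1159 CPM in WT, with overlapping intervals. Outside the neutrophil-like cells and the mixed neutrophil droplets lay 57.3% of Il1r2 UMIs in the VISTA KO and 21.7% in the WT library. Mixed neutrophil and macrophage droplets stood at 155 and 227 CPM and supplied 39.2% of Il1r2 UMIs in the VISTA KO and 69.4% in the WT library. Monocyte-like cells stood at 19.0 and 16.4 CPM and macrophage-like cells at 12.96 and 15.7 CPM, and neither pair was apart. Over all kept cells Il1r2 stood at 43.7 CPM in VISTA KO and 111.9 CPM in WT, with a ratio of -1.36 (-1.42 to -1.30). Without the neutrophil droplets the levels were 28.2 and 37.4 CPM, and the ratio, at -0.41, was no longer called.

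Il1r2 was also lower in the VISTA KO library in several classes and clusters outside the neutrophil droplets. The lowest ratio was in unnamed cluster 9, at 53.1 CPM in VISTA KO and 198.6 CPM in WT (-1.88, -2.43 to -1.40), where the neutrophil marker sum was 1057 and 4098 CPM. Mixed NK cell and macrophage droplets stood at 32.0 and 61.4 CPM (-0.93), with sums of 494 and 2789 CPM. The unnamed clusters together stood at 28.2 and 47.7 CPM (-0.76), but they were pooled in unlike parts. Cluster 9 was 473 of the 6564 VISTA KO and 535 of the 1340 WT unnamed cells. In unnamed cluster 3, thinned to 1000 UMIs, 2.5% of VISTA KO and 0.909% of WT cells held an Il1r2 UMI, with overlapping intervals. In mature dendritic cell-like cells Il1r2 stood at 54.2 CPM in VISTA KO and 122.6 CPM in WT (-1.17, -1.58 to -0.78). There 1 of 7 members was lower, against 1.97% of 3246 genes, and 1 was higher (Il18bp), against 5.82%, with median ratios of 0.09 over the members and 0.05 over all genes. The neutrophil marker sum in these cells was 1036 CPM in VISTA KO and 1774 CPM in WT. The part of the neutrophil markers in these differences was not tested. In cDC2-like cells, where that sum was 97.0 and 106.3 CPM, Il1r2 stood at 109.9 CPM in VISTA KO and 167.9 CPM in WT (-0.61, -0.81 to -0.41). The share of cDC2-like cells with an Il1r2 UMI depended on the thinning depth. It was 10.7% in both libraries at 1000 UMIs per cell, and 14.0% in VISTA KO and 18.8% in WT at 2000 UMIs, with overlapping intervals (27.1% and 36.4% unthinned).

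Il18, a cytokine that drives interferon-γ in NK and T cells, was highest in monocyte-like and neutrophil-like cells. Monocyte-like cells held 155 CPM in VISTA KO and 148 CPM in WT, and neutrophil-like cells 149 and 142 CPM with wide intervals. The monocyte-like interval of the ratio, 0.07, held 0. Macrophage-like cells stood lower, at 70.6 CPM in VISTA KO and 86.3 CPM in WT (-0.29, -0.43 to -0.15), and mixed neutrophil and macrophage droplets at 78.2 and 107 CPM (-0.45). Within the monocyte-like class cluster 5 gave a ratio of 0.20 and cluster 7 one of -0.25, so the class value pools opposite directions. NK cell-like cells were near the floor, with 11 and 5 UMIs.

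Il18bp encodes the soluble protein that neutralises IL-18 and is known as an interferon-γ target. Among the named classes its level was highest in neutrophil-like cells in both libraries, on 16 VISTA KO and 89 WT UMIs. After thinning, 9.09% of VISTA KO and 15.9% of WT neutrophil-like cells held an Il18bp UMI, against 10.2% and 7.94% of macrophage-like cells. The VISTA KO intervals of these shares overlapped. Il18bp stood at 99.2 CPM in VISTA KO and 70.7 CPM in WT monocyte-like cells (0.49, 0.38 to 0.60). In macrophage-like cells it stood at 122 and 85.6 CPM (0.51, 0.38 to 0.65), and in mature dendritic cell-like cells at 105.9 and 65.1 CPM (0.69, 0.29 to 1.13). The interval lay above 0 in 8 of 13 clusters and below 0 in none, a count that 12.9% of 2178 genes reached. The monocyte-like ratio was 0.23 with cluster 7, the richest of them in Il18bp and more frequent in the VISTA KO library (1122 against 557 cells), left out, and 0.72, past 1.5-fold, where each library was clustered alone. Il18 UMIs were 36.6% of Il18 plus Il18bp UMIs in VISTA KO and 50.2% in WT macrophage-like cells, and 61.0% and 67.7% in monocyte-like cells. Among the monocyte-like clusters the intervals were apart in cluster 7 (49.0% and 58.1%) and overlapped in cluster 0 (65.3% and 67.1%) and cluster 5 (77.9% and 81.9%). In cDC2-like cells, at 44.1% and 42.9%, the intervals overlapped.

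Nlrp3, the sensor of membrane damage and ion loss that nucleates the best known inflammasome, was highest in neutrophil-like cells, at 530 CPM in VISTA KO and 432 CPM in WT with overlapping intervals. Basophil and mast cell-like cells, 89 and 46 in number, held 271 and 330 CPM, likewise overlapping. Monocyte-like cells stood at 77.0 CPM in VISTA KO and 75.2 CPM in WT (0.03, -0.08 to 0.15) and macrophage-like cells at 59.0 and 61.4 CPM (-0.06, -0.22 to 0.11). Both intervals held 0, but the monocyte-like ratio was -0.34 (-0.47 to -0.22) where each library was clustered alone and 0.18 without cluster 7. Mature dendritic cell-like cells held least of the myeloid classes, at 25.0 and 25.5 CPM, from 41 and 27 UMIs. Over all kept cells the ratio was -0.23, and it was 0.12 without the neutrophil droplets.

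Pycard encodes ASC, the adaptor that joins sensor and caspase. Unlike Il1b, it was lowest in neutrophil-like cells, at 83.6 CPM in VISTA KO and 117 CPM in WT (9 and 62 UMIs). From monocyte-like over cDC2-like and macrophage-like to NK cell-like cells the WT levels of both genes descended. For WT Il1b, however, monocyte-like and cDC2-like cells could not be told apart. Mature dendritic cell-like cells went against the order, with Il1b above monocyte-like cells in both libraries. After thinning, 19.1% of VISTA KO and 15.3% of WT cells of that class held a Pycard UMI, against 30.6% and 24.7% of NK cell-like cells. In monocyte-like cells Pycard stood at 575 CPM (563 to 588) in VISTA KO and 834 CPM (821 to 848) in WT, a ratio of -0.54 (-0.57 to -0.50). Macrophage-like cells stood at 513 CPM in VISTA KO and 635 CPM in WT (-0.31), cDC2-like cells at 535 and 648 CPM (-0.28) and mixed neutrophil and macrophage droplets at 448 and 546 CPM (-0.29). NK cell-like cells held as much in either library, 399 and 393 CPM, with an interval of the ratio from -0.16 to 0.20.

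The Pycard difference was modest and wide. Its interval lay below 0 in 11 of 14 clusters, a count that 4.93% of 1888 genes reached, and in none above 0. No cluster reached 1.5-fold, and ratios ran from -0.57 in monocyte-like cluster 5 to 0.04 in cluster 9. After thinning, 39.5% of VISTA KO and 51.3% of WT monocyte-like cells held a Pycard UMI (75.8% and 89.6% unthinned). In NK cell-like cells, which hold Pycard RNA as well, the shares were 30.6% and 24.7% (59.4% and 53.4% unthinned), and in neutrophil-like cells 9.09% and 9.83% (11.7% and 11.9% unthinned). The monocyte-like ratio was -0.61, past 1.5-fold, when all ratios were shifted by the median gene, and -0.67 where each library was clustered alone.

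Casp1, the protease that cleaves the precursors of IL-1β and IL-18, differed little. It stood at 137 CPM in VISTA KO and 147 CPM in WT monocyte-like cells (-0.09, -0.18 to -0.01), and at 75.6 and 85.0 CPM in macrophage-like cells (-0.17, -0.31 to -0.03). Casp4, the mouse caspase-11 gene, encodes the caspase that binds bacterial lipopolysaccharide in the cytosol. Among the named classes its level was highest in neutrophil-like cells in both libraries, on 27 VISTA KO and 158 WT UMIs. After thinning, 21.2% of VISTA KO and 22.7% of WT neutrophil-like cells held a Casp4 UMI, against 15.1% and 13.7% of monocyte-like cells. The VISTA KO intervals of these shares overlapped. Casp4 stood at 173 CPM in VISTA KO and 150 CPM in WT monocyte-like cells (0.21, 0.13 to 0.29). In macrophage-like cells it stood at 58.2 and 54.6 CPM, where the interval held 0. In cDC2-like cells it was called higher, at 122 CPM (111 to 134) in VISTA KO and 74.7 CPM (64.4 to 86.1) in WT, a ratio of 0.70. Casp4 UMIs were 54.5% of Casp4 plus Casp1 UMIs in VISTA KO and 42.7% in WT cDC2-like cells, with intervals apart. Over all kept cells Casp4 stood at 111 CPM in VISTA KO and 112 CPM in WT.

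Likeness of pattern was measured as Pearson's r of log2 CPM over 17 sums, each of 1 class in 1 library with at least 100 cells, and 7016 genes with a mean of at least 10 CPM were ranked. These sums share libraries, depth and free RNA, so r is a description. Among the members, Il1b went most closely with Il1a (0.88), Nlrp3 and Il1r2 (0.87 each) and Il1rn (0.85), and its r with Pycard was -0.45. The 5 genes most like Il1b were Trim30b and Dusp16 (0.96 each) and Tnfaip2, Mcl1 and Oasl2 (0.94 each). Mcl1 is a survival gene of the BCL2 family and Oasl2 an interferon-induced gene. Those most like Il1rn were Ptafr and Cdc42ep2 (0.96 each), then Gm34455 (0.95) and Rnf19b and Crk (0.94 each). Ptafr is the receptor of platelet-activating factor. Il18 was most like Lamp2 (0.97), Rab32 and Gpat3 (0.96 each), Dok3 (0.96) and Prdx5 (0.95). Nlrp3 was most like the immediate early gene Fos (0.98), then Tiparp, Rtp4 and Cd300lf (0.97 each) and Oas2 (0.96).

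Of 75 other genes listed for the pathway, 70 were in the matrices. In monocyte-like cells 51 had at least 100 UMIs, of which 1 was higher and 2 were lower, with a median ratio of 0.19. In macrophage-like cells 0 of 46 were called in either direction, with a median of 0.10. Over all kept cells 1 of 59 was higher and 7 were lower. These counts stand against the shares of all genes given above for the same cells.

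Receptor RNA was scarce or lay in other cells. Il1r1, the signalling receptor of IL-1, was all but undetected, with 21 UMIs in the VISTA KO and 15 in the WT library (0.262 and 0.243 CPM). Its partner Il1rap stood at 17.2 CPM in VISTA KO and 23.5 CPM in WT, and at 130 and 111 CPM in neutrophil-like cells. The IL-18 receptor genes lay in NK cell-like cells: Il18r1 stood there at 150.8 CPM in VISTA KO and 143.1 CPM in WT, against 2 UMIs in each library's monocyte-like cells. Il18rap, its second chain, stood at 218.5 and 173.5 CPM in NK cell-like cells (0.33, 0.07 to 0.59). Of the 9 genes of the receptor list, only 2 in monocyte-like and 1 in macrophage-like cells had at least 100 UMIs. None of these was called, and the others could not be called at these counts.

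Among adaptors and kinases 0 of 13 were called in monocyte-like cells. Myd88, the adaptor of the IL-1 receptor family, gave a ratio of 0.13 there and -0.01 in macrophage-like cells. Irak3, a kinase-like brake on that pathway, gave -0.05 and 0.19. Peli2 and Peli1, ubiquitin ligases of the same pathway, gave 0.56 and 0.43 in monocyte-like cells, under 1.5-fold.

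None of the other inflammasome sensors was called in monocyte-like or macrophage-like cells, where their median ratio was 0.37 over 8 genes and 0.15 over 6. Mefv, the pyrin gene, stood at 120 CPM in VISTA KO and 91.2 CPM in WT monocyte-like cells (0.40, 0.30 to 0.50). Naip2, a receptor of bacterial secretion proteins, gave 0.44, the DNA sensor Aim2 0.36 and Nlrc4, the partner of the Naip proteins, 0.34. Of partners and triggers, P2rx4, an ATP-gated channel, was the 1 gene higher in monocyte-like cells, at 95.3 CPM in VISTA KO and 61.4 CPM in WT (0.63, 0.52 to 0.75). P2rx7, the ATP-gated channel known to trigger NLRP3, gave 0.33 and the NLRP3 partner Nek7 0.24. Trem1, a myeloid activating receptor, gave -0.52 in monocyte-like cells and stood at 50.8 CPM in VISTA KO and 126 CPM in WT over all kept cells.

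Gsdmd, the pore protein cut by caspase-1 and caspase-11, stood at 104 CPM in VISTA KO and 88.2 CPM in WT monocyte-like cells (0.24, 0.14 to 0.34). In macrophage-like cells it stood at 70.6 and 66.2 CPM, where the interval held 0. Ripk3, a kinase of necroptosis, gave -0.48 and -0.29. Both genes lower in monocyte-like cells were of the protease list: Prtn3, the serine protease proteinase 3, stood at 19.6 CPM in VISTA KO and 35.7 CPM in WT (-0.86). Serpinb1a, an inhibitor of such proteases, stood at 15.7 and 28.3 CPM (-0.84). Serpinb9, another protease inhibitor, gave 0.45 in both classes.

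Of the 7 genes lower over all kept cells, Il1f9 (the IL-36γ gene) had the lowest ratio, at 2.70 CPM in VISTA KO and 18.7 CPM in WT (-2.79). In neutrophil-like cells Il1f9 stood at 223 and 309.5 CPM, with overlapping intervals. Those cells held 0.134% of all VISTA KO UMIs and 0.859% of all WT UMIs, so most Il1f9 UMIs lay outside them. The others were Trem1, Prtn3, Serpinb1a, Nlrp12, Elane and Ctsg, and the 1 higher gene was Il1rl2, a receptor chain for IL-36, at 5.47 and 3.48 CPM (0.65). Il1f9, Nlrp12, Elane, Ctsg and Il1rl2 were chosen after their values were seen.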

How the data were processed

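The deposited matrices hold UMI counts of whole numbers for 32285 genes per cell barcode, written by Cell Ranger 5.0.0 per the file headers, with no normalization. The submitters' processing notes name mm10, Cell Ranger and Seurat 4.0, and how cells were called is not stated. The labels give at least 20000 read pairs per cell. Cells with at least 200 genes, 500 UMIs and at most 10% mitochondrial UMIs were kept (99.2% of VISTA KO and 99.5% of WT barcodes). No doublet caller was run. Counts were scaled to 10000 per cell and clustered with scanpy 1.11.5 and leidenalg 0.10.2 (2000 variable genes, 30 components, 15 neighbours, resolution 1), leaving out the members, pathway genes, Vsir, Xist, Y-linked, mitochondrial, ribosomal and cell cycle genes.

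Clusters were named "-like" from 17 marker lists: at least 3 markers 1.5-fold above other cells and in at least 20% of cells, with at least 3 macrophage markers in 60% of cells making a cluster mixed. These limits were chosen with the clusters in view. Counts were summed per class and library and given per 1000000. Ratios carry a pseudocount of 1 UMI and the exact conditional binomial interval, levels exact Poisson and shares Clopper-Pearson intervals, computed with scipy 1.17.1. UMIs are counted once per captured molecule, and intervals cover counting error only. The ratios and intervals were checked on simulated Poisson counts. The intervals assume that same model, so the check does not cover the spread between cells. Classes needed 100 cells in both libraries. The members and lists were chosen with earlier results of these data known. Pathway genes were named by a rule, the 3 highest and 3 lowest ratios per list in monocyte-like and macrophage-like cells plus 11 fixed genes, and not every gene the rule allows is printed. Alternatives covered scaling, filters, clustering, thresholds and thinning depth.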

Additional observations from a re-analysis of the deposited data

Results flagged for a closer look

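The Il1b ratio of VISTA KO over WT took opposite signs in different classes of cells. On the log2 scale it was 0.83 in NK cell-like, 0.32 in cDC2-like, 0.25 in macrophage-like and 0.12 in monocyte-like cells, with intervals above 0. It was -0.28 in mixed neutrophil and macrophage droplets, -0.33 in mature dendritic cell-like cells and -0.42 in mixed NK cell and macrophage droplets, with intervals below 0. The difference between these classes was not tested, since each rests on 1 library per group.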

How the results depend on the processing

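The number of members called in monocyte-like cells, 1 as reported, was 2 when ratios were shifted by the median gene, 3 when each library was clustered alone and 3 under a smaller size rule than 1.5-fold. In macrophage-like cells, 1 as reported, it was 0 when each library was clustered alone, 2 with clusters weighted equally and 2 under the smaller size rule. Over all kept cells, 3 as reported, it was 0 with clusters weighted equally and 6 under the smaller size rule. The share of all genes called was not computed under these settings, so these counts have no background beside them. The cause was not tested. With the neutrophil droplets left out, a setting added after seeing the data, the ratio over all kept cells turned to 0.42 for Il1a and to 0.27 for Il1b, by construction without the cells that supplied most of their WT UMIs. The Il1rn ratio stayed above 0 in each alternative run, between 0.79 and 0.98 in monocyte-like and between 0.50 and 0.88 in macrophage-like cells, and the Pycard ratio stayed below 0, between -0.67 and -0.48 and between -0.36 and -0.27. Resolution and the other clustering settings do not apply to all kept cells and were not run there. No paired analysis was possible because only 1 library stood in each group. Counts limit Il1a, which had 53 UMIs in each library's monocyte-like cells.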
